A study of Mus musculus with 10 samples.

Results

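Schwann cell and myelin genes were examined in the left ventricle (LV) and skeletal muscle (SkM) of mice that lack 1 copy of E0, an intronic enhancer of *Ttn*. The genes were *Mbp*, *Pmp22*, *Mag*, *Prx*, *Sox10*, *S100b* and *Cnp*. They were chosen by symbol as markers of nerve in muscle, and all 7 of 7 were found among the 23337 genes of the count files. The study compared 2 WT mice with 3 E0del/+ mice, which carry a heterozygous deletion made with CRISPR/Cas9. All 5 mice had a hybrid C57BL/6/129SvEv background, from C57BL/6 E0del/+ mice crossed with 129SvEv WT mice, and were 17 weeks old. LV and SkM of each mouse gave 1 bulk RNA-Seq library each, 10 libraries in all, so that n = 2 for WT and n = 3 for E0del/+ in each tissue. The labels did not name the muscle that was taken as SkM. The mice are written below as WT 1, WT 2, E0del/+ 1, E0del/+ 2 and E0del/+ 3. WT 1 and E0del/+ 1 belonged to batch 1 of the labels, WT 2 and E0del/+ 2 to batch 2, and E0del/+ 3 to batch 3.

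Schwann cells are the glia of peripheral nerve. Myelinating Schwann cells wrap a single large axon in compact layers of membrane held together by myelin proteins, whereas nonmyelinating Schwann cells enclose several thin axons without myelin. Limb and trunk muscles are entered by nerves rich in myelinated motor and sensory fibers, while the ventricular wall is supplied mainly by thin autonomic fibers. In a bulk library the amount of nerve caught with the muscle sets the level of these genes along with their activity, and fewer Schwann cells cannot be told apart from less RNA per cell.

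Total gene counts were between 13892390 and 17484873 in the SkM libraries and between 11010021 and 15361520 in the LV libraries. Levels are given as CPM, that is counts scaled to a common library total, unless stated otherwise, and a count of 0 allows up to 0.172 to 0.216 CPM in SkM and up to 0.195 to 0.273 CPM in LV (3 counts, counting error only). A small number of contractile genes filled much of each SkM library. The 100 most abundant genes took 47.8% to 52.0% of the counts in SkM and 29.6% to 32.7% in LV. This makes CPM of all other genes lower in SkM relative to LV, and results that compare the tissues are therefore also given with TMM scaling, which sets the bulk of genes level.

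The labelled tissues matched their defining genes in 9 of 10 libraries. The 10 fast fiber genes, led by *Myh4*, the heavy chain of the fastest fibers, summed to between 161364 and 172948 CPM in the 5 SkM libraries and to 160.0, 183, 169 and 169 CPM in the LV libraries of WT 1, E0del/+ 1, E0del/+ 2 and E0del/+ 3. The LV library of WT 2 stood apart. It held 39920 CPM of the same genes, and its heart genes, led by *Myh6*, summed to 51525 CPM against 64170 to 73767 CPM in the other 4 LV libraries. With the mean of the other 4 LV libraries subtracted and the SkM library of E0del/+ 3 as reference, the fast fiber genes in the WT 2 LV library were at a median of 22.2% of their SkM level, with a range of 20.7% to 24.7%. *Prx* was at 25.4% of that SkM library by the same measure, beyond the -12.1% to 12.3% of the other 4 LV libraries. Each of those 4 was set against the mean of the rest of the 4, a baseline of fewer libraries. *Mbp* was at 11.1% in the WT 2 LV library, within the range of those 4, -6.4% to 16.4%. Some LV results are for this reason also given without WT 2, and all others include it.

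The SkM library of WT 1 stood apart in other ways. *Ddx3y*, a gene of the Y chromosome, read 12.5 CPM there beside 397 CPM of *Xist*, the RNA that coats the inactive X chromosome. *Ddx3y* read 94.1 and 108 CPM in the SkM libraries of WT 2 and E0del/+ 3, which were at 0.343 and 0.422 CPM of *Xist*. The *Ddx3y* level of WT 1 was 13.2% of that in WT 2 and 11.5% of that in E0del/+ 3, and *Mbp* at these shares of their SkM libraries would come to 3.11 and 2.59 CPM. The WT 1 SkM library also held genes of milk and glandular epithelium, described with *Sox10* below. *Ttn* itself read 24205, 15856, 20092, 18854 and 13585 CPM in the SkM libraries of WT 1, WT 2, E0del/+ 1, E0del/+ 2 and E0del/+ 3, and 7959, 9344, 7737, 5560 and 6597 CPM in the LV libraries in the same order. The genotypes overlapped in SkM, and in LV both WT values lay above the 3 E0del/+ values by CPM only. Without WT 2 the nearest LV values were 7959 CPM in WT 1 and 7737 CPM in E0del/+ 1. The TMM factors of these LV libraries were 1.2685 and 1.2122, and that scaling places WT 1 below E0del/+ 1. With WT 2 included, the log2 fold change of E0del/+ over WT in LV was -0.45 ± 0.267 (edgeR adjusted *P* = 0.997).

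In the coordinates of the files (mm10), *Pmp22* has 5 exons between 63131510 and 63159546 of chromosome 11, plus strand, and *Cnp* has 4 exons between 100574939 and 100581739 of the same chromosome, plus strand. *Mag* has 13 exons between 30899183 and 30914832 of chromosome 7, minus strand, and *Prx* has 6 exons between 27499324 and 27520041 of chromosome 7, plus strand. *Sox10* has 4 exons between 79154913 and 79164490 of chromosome 15, minus strand, and *S100b* has 3 exons between 76253836 and 76261319 of chromosome 10, plus strand. *Mbp* has 10 exons. The exons of the 7 members overlapped no exon of another gene in the files. In GENCODE M21, an antisense gene, Gm15541, covers 300 bases of the *Prx* exons, and because the library kit keeps no strand, reads from these 300 bases cannot be told apart.

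Because several members moved together between SkM libraries, the promoters of those held in the RefSeq table (GRCm38.p6) were searched for short motifs of regulators of myelin genes. SOX10 binds motifs with ACAAAG or ACAATG, and EGR2, the activator of the myelinating program, binds GCGTGGGCG or GCGGGGGCG. Promoters were given for 5 of the 7 members, all except *Sox10* and *Mbp*. Both strands of the 250 bases before each start were read. Of 32851 promoters of the table, 25.2% held at least 1 of the SOX motifs and 3.06% at least 1 of the EGR motifs. ACAAAG was found in *Mag* and *Cnp*, and neither a SOX nor an EGR motif was found in the windows of *Prx*, *Pmp22* and *S100b*. The 250 bases before the start nearest to the files' gene model are printed below for a pair with the motif and a pair without it, each 5′ to 3′ on the strand of the gene, with the matched letters in capitals. *Mag* is at chr7:30914864-30915113, minus strand, with the match on the opposite strand, from base -126 to -121. *Cnp* is at chr11:100574689-100574938, plus strand, with the match on the same strand, from base -167 to -162. *Prx* is at chr7:27499074-27499323 and *Pmp22* at chr11:63131207-63131456, both on the plus strand.
Mag: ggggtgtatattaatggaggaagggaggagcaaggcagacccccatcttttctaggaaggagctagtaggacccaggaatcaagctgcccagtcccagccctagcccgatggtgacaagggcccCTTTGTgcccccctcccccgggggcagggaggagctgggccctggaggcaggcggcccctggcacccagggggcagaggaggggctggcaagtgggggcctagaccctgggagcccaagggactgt
Cnp: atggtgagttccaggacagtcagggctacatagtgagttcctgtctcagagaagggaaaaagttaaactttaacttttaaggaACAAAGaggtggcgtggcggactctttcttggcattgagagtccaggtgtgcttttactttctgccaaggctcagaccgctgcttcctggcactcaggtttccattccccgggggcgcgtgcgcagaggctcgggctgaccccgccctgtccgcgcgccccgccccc
Prx: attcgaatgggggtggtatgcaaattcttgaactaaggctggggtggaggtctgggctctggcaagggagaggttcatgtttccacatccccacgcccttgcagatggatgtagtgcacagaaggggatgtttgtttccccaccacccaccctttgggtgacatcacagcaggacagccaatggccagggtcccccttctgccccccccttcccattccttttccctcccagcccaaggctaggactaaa
Pmp22: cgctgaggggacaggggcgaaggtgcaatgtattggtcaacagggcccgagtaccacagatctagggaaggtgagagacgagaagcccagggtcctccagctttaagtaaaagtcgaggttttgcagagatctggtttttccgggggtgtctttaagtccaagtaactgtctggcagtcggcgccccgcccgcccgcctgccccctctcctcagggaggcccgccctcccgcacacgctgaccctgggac
A match describes these letters only, and its absence says nothing of the factor. *Prx* and *Pmp22* without a match and *Mag* with one shared the pattern between SkM libraries described below, whereas *Cnp*, also with one, varied least.

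*Mbp* and *Pmp22* encode proteins of compact myelin. *Mbp*, which binds the inner faces of the myelin membrane together, read 36.9 CPM in WT 1, 23.5 CPM in WT 2, 8.43 CPM in E0del/+ 1, 7.66 CPM in E0del/+ 2 and 22.5 CPM in E0del/+ 3 in SkM. In the LV it read 6.38, 8.73, 6.38, 8.99 and 6.28 CPM in the same order of mice. *Mbp* thus varied 4.81-fold between SkM libraries and 1.43-fold between LV libraries. In E0del/+ 1 and E0del/+ 2 its SkM level was close to that in LV by CPM, but with TMM scaling it was 9.82 against 5.26 and 9.80 against 6.38. *Pmp22*, a membrane protein of myelin whose gene dosage decides inherited neuropathy, read 55.4, 33.9, 11.2, 15.4 and 45.6 CPM in SkM in the order WT 1, WT 2, E0del/+ 1, E0del/+ 2, E0del/+ 3. In LV it read 67.7, 54.4, 50.1, 60.5 and 48.9 CPM. *Pmp22* is also made by fibroblasts and endothelium, and in LV it was high in all 5 libraries while *Mbp* was low. The ratio of *Pmp22* to *Mbp* was 1.33 to 2.03 in SkM and 6.23 to 10.6 in LV, with no overlap between the tissues.

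*Prx* and *Mag* encode proteins of the Schwann cell surfaces that face the outside and the axon. *Prx*, the scaffold that joins the outer surface of the myelinating cell to its basal lamina, read 12.0, 7.89, 1.17, 2.60 and 7.46 CPM in SkM of WT 1, WT 2, E0del/+ 1, E0del/+ 2 and E0del/+ 3. In LV it read 1.31, 3.24, 2.34, 2.09 and 1.48 CPM, highest in WT 2, the library with skeletal muscle counts. In SkM the same 2 libraries were low for *Prx* as for *Mbp*, with a 10.3-fold range. *Mag*, the adhesion molecule on the membrane next to the axon, was counted 12, 11, 1, 2 and 12 times in SkM and 2, 3, 3, 4 and 0 times in LV. At 12 counts the level in WT 1 SkM was 0.864 CPM with a 95% exact Poisson interval of 0.446 to 1.51 CPM, and at 1 count that in E0del/+ 1 SkM was 0.0615 CPM with an interval of 0.00160 to 0.343 CPM. The 0 counts in LV of E0del/+ 3 allow up to 0.262 CPM. *Mag* was lowest in the same pair of SkM libraries as *Prx*, but the interval of WT 2, 0.314 to 1.13 CPM, overlapped those of E0del/+ 1 and of E0del/+ 2, which reached 0.481 CPM.

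*Cnp* encodes an enzyme of noncompact myelin that other cell types also make. It read 13.7, 8.75, 10.8, 6.996 and 11.3 CPM in SkM and 10.9, 12.8, 11.4, 14.3 and 12.0 CPM in LV, in the order WT 1, WT 2, E0del/+ 1, E0del/+ 2, E0del/+ 3. Among the members *Cnp* varied least between SkM libraries, 1.97-fold, and E0del/+ 1, low for the myelin proteins, held its median level. *S100b*, a calcium-binding protein used to stain Schwann cells, was counted 22, 21, 6, 7 and 18 times in SkM, or 1.58, 1.20, 0.369, 0.466 and 1.27 CPM. In LV it read 0.768, 0.990, 0.781, 1.27 and 1.66 CPM. By CPM, *S100b* was higher in SkM than in LV in both WT mice and lower in all 3 E0del/+ mice. With TMM scaling this held for E0del/+ 1 and E0del/+ 2 but not for E0del/+ 3, with 1.58 in SkM and 1.44 in LV.

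*Sox10*, the transcription factor of the whole Schwann cell and neural crest lineage, followed another order. In SkM it read 13.3, 1.26, 4.43, 0.733 and 0.845 CPM in WT 1, WT 2, E0del/+ 1, E0del/+ 2 and E0del/+ 3, and in LV 2.84, 4.14, 4.36, 5.54 and 2.18 CPM. WT 2 and E0del/+ 3, high for *Mbp*, *Pmp22* and *Prx*, had 1.26 and 0.845 CPM of *Sox10* against 13.3 CPM in WT 1. *Sox10* is also a gene of mammary and salivary epithelium. A list of 8 genes of mammary epithelium and milk, chosen after its values were seen, summed to 118, 0.229, 50.5, 7.13 and 0.141 CPM in SkM in the same order, with 6 of 8 at a mean of 1 CPM or more. Its most abundant gene, *Krt8*, read 20.5, 0.114, 13.8, 1.13 and 0.0704 CPM, and *Csn2*, which encodes a milk casein, read 26.5, 0, 5.72, 0.866 and 0 CPM. *Sox10* was highest in the 2 libraries that were highest for these genes, and the part of epithelium in its level was not tested.

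**Figure D1:**
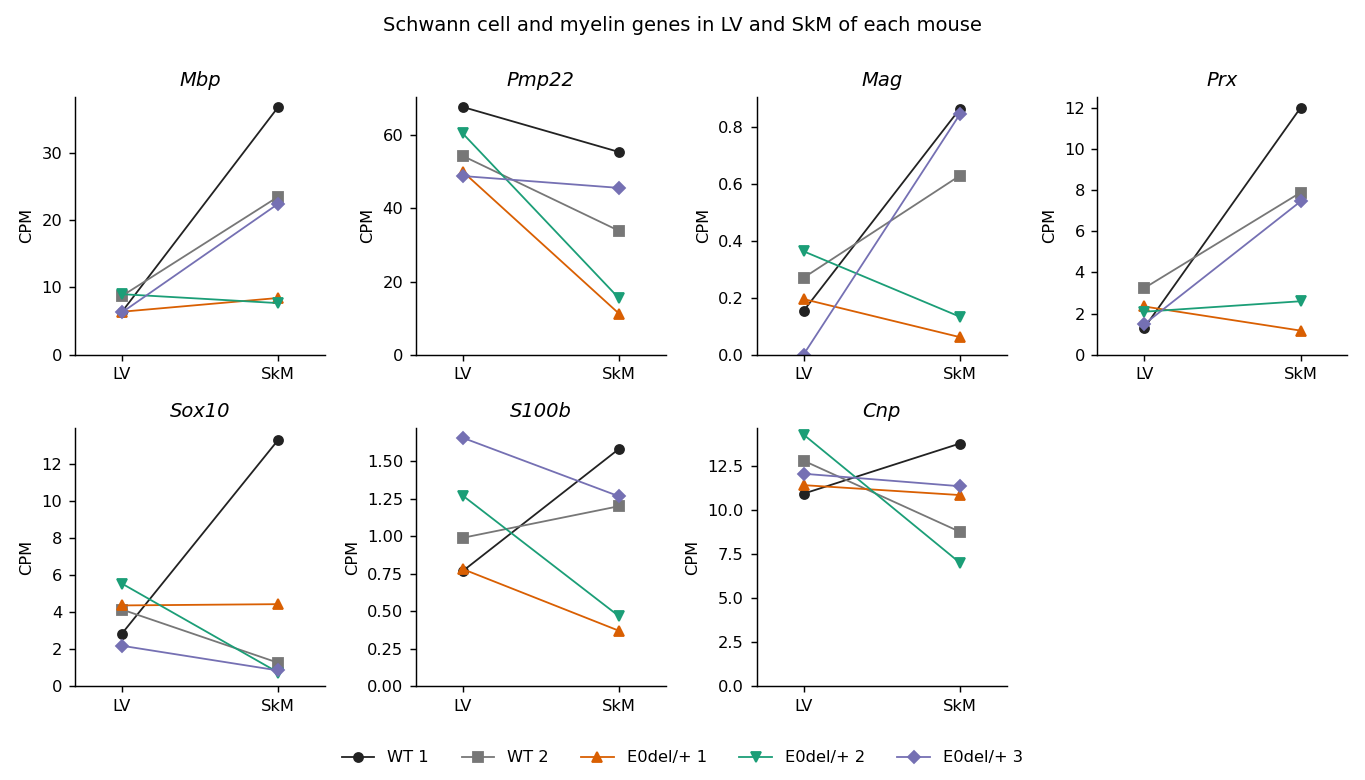
CPM of the 7 members (vertical axes, linear) in LV and SkM of each of the 5 mice, with 1 line per mouse. *Mbp*, *Mag* and *Prx* rise from LV to SkM in WT 1, WT 2 and E0del/+ 3 and stay low in E0del/+ 1 and E0del/+ 2, whereas *Sox10* reaches 13.3 CPM in the SkM of WT 1 alone.

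Levels of different genes were compared per length of transcript as the deposited RPKM values. In SkM the mean was 17.9 ± 10.6 RPKM (SD, n = 5) for *Pmp22*, 3.86 ± 0.962 for *Cnp*, 2.94 ± 1.81 for *Mbp*, 1.52 ± 1.98 for *Sox10*, 1.18 ± 0.832 for *Prx*, 0.588 ± 0.320 for *S100b* and 0.209 ± 0.159 for *Mag*. In LV it was 31.3 ± 4.36 RPKM for *Pmp22*, 4.58 ± 0.490 for *Cnp*, 1.41 ± 0.488 for *Sox10*, 1.09 ± 0.206 for *Mbp*, 0.658 ± 0.226 for *S100b*, 0.398 ± 0.146 for *Prx* and 0.0809 ± 0.0559 for *Mag*. *Pmp22* stood clear of the other members in both tissues. *Cnp* and *Mbp*, and *Mbp*, *Sox10* and *Prx*, overlapped within their spread in SkM, while *Cnp* stood above *Mbp* in every LV library.

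The nerve content of the SkM libraries was read from the members together. Their CPM summed to 134 in WT 1, 77.1 in WT 2, 36.5 in E0del/+ 1, 34.0 in E0del/+ 2 and 89.8 in E0del/+ 3, a 3.94-fold range. *Pmp22* made up 30.7% to 50.8% of the sum, and without it the sums were 78.4, 43.2, 25.3, 18.6 and 44.2 CPM, a 4.22-fold range. WT 1, WT 2 and E0del/+ 3 were thus the SkM libraries rich in myelin RNA, and the pair of poor ones, E0del/+ 1 and E0del/+ 2, shared batches with WT 1 and WT 2.

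Ratios to *Mbp* showed which members kept pace with it between the SkM libraries. *Prx* over *Mbp* was 0.326, 0.336, 0.332 and 0.339 in WT 1, WT 2, E0del/+ 3 and E0del/+ 2, and 0.139 in E0del/+ 1. In 4 of 5 SkM libraries *Prx* and *Mbp* therefore kept 1 ratio while their level varied, and E0del/+ 1 departed from it. *Cnp* over *Mbp* was 0.373, 0.372, 0.505, 0.913 and 1.28 in WT 1, WT 2, E0del/+ 3, E0del/+ 2 and E0del/+ 1, and was higher in both poor libraries than in the rich ones. *Pmp22* over *Mbp* did not separate them, with 1.33 and 2.01 in the poor and 1.44 to 2.03 in the rich libraries. *S100b* over *Mbp*, at low counts of *S100b*, was 0.043 to 0.0609 over the 5 SkM libraries. *Mag* over *Mbp*, at still fewer counts, was 0.0073 to 0.0376. *Sox10* over *Mbp* did not keep pace, with 0.0376 in E0del/+ 3 and 0.5255 in E0del/+ 1.

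Myelin genes did not take the order of fat over all 5 libraries, and WT 2 was high for myelin but lowest for fat. The 6 adipocyte genes, of which *Cfd* was the most abundant and none was at 0 in SkM, summed to 1139, 8.98, 285, 150 and 1198 CPM in SkM of WT 1, WT 2, E0del/+ 1, E0del/+ 2 and E0del/+ 3. WT 2 and E0del/+ 3 differed 133-fold in these genes, from 0.858 to 189 CPM for *Plin1*, the coat protein of fat droplets, and from 0.686 to 115 CPM for *Adipoq*, the hormone of fat cells. Over the same pair the ratio of E0del/+ 3 to WT 2 was 0.955 for *Mbp*, 0.945 for *Prx* and 1.35 for *Pmp22*. WT 2, with the least fat, was among the libraries rich in myelin. In the other 4 libraries, WT 1 and E0del/+ 3 were high and E0del/+ 1 and E0del/+ 2 low for both fat and myelin. The order within these pairs was not shared by all genes. Fat was highest in E0del/+ 3 and *Mbp*, *Prx* and *Pmp22* in WT 1. *Prx* and *Pmp22* were lower in E0del/+ 1 than in E0del/+ 2, unlike fat.

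They also did not take the order of slow fibers. The 7 slow fiber genes, led in SkM by *Myh7*, the slow myosin heavy chain, summed to 1619, 211, 2326, 2898 and 416 CPM in the same order of libraries, and none was at 0. WT 2 and E0del/+ 3, low in slow fiber genes, were rich in myelin, and E0del/+ 1 and E0del/+ 2, high in slow fiber genes, were poor in it. WT 1 broke this reversed order, with 1619 CPM of slow fiber genes against 211 and 416 CPM in WT 2 and E0del/+ 3. Its *Mbp* was nonetheless above theirs, at 36.9 against 23.5 and 22.5 CPM. Against E0del/+ 1 and E0del/+ 2, WT 1 kept the reversed order. Its slow fiber sum was 0.696 and 0.559 times theirs, and its *Mbp* was 4.37 and 4.81 times theirs. The fast fiber sum spanned 1.07-fold over the 5 libraries, but its genes moved in opposite directions. For 5 of the 10, *Myh4*, *Tnni2*, *Tnnc2*, *Mylpf* and *Pvalb*, E0del/+ 1 and E0del/+ 2 were the lowest pair by CPM. The gaps were small, unlike for *Mbp*, with 75884 CPM of *Myh4* in E0del/+ 2 against 76076 CPM in WT 1. The TMM factor was 0.8912 in WT 1 and 0.7815 in E0del/+ 2. That scaling places WT 1 below E0del/+ 2 for all of these genes but *Pvalb*. *Myh1* and *Myh2*, heavy chains of less fast fibers, were highest in E0del/+ 1 and E0del/+ 2, with 5984 and 6774 CPM of *Myh1* against 1707 to 5051 CPM in the other 3. *Pvalb*, the calcium buffer of fast fibers, read 2866, 4372, 2608, 2424 and 3361 CPM in the same order of libraries, where WT 2 was highest and WT 1 lay near E0del/+ 1, unlike for *Mbp*. With 5 libraries no correlation was computed.

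**Figure D2:**
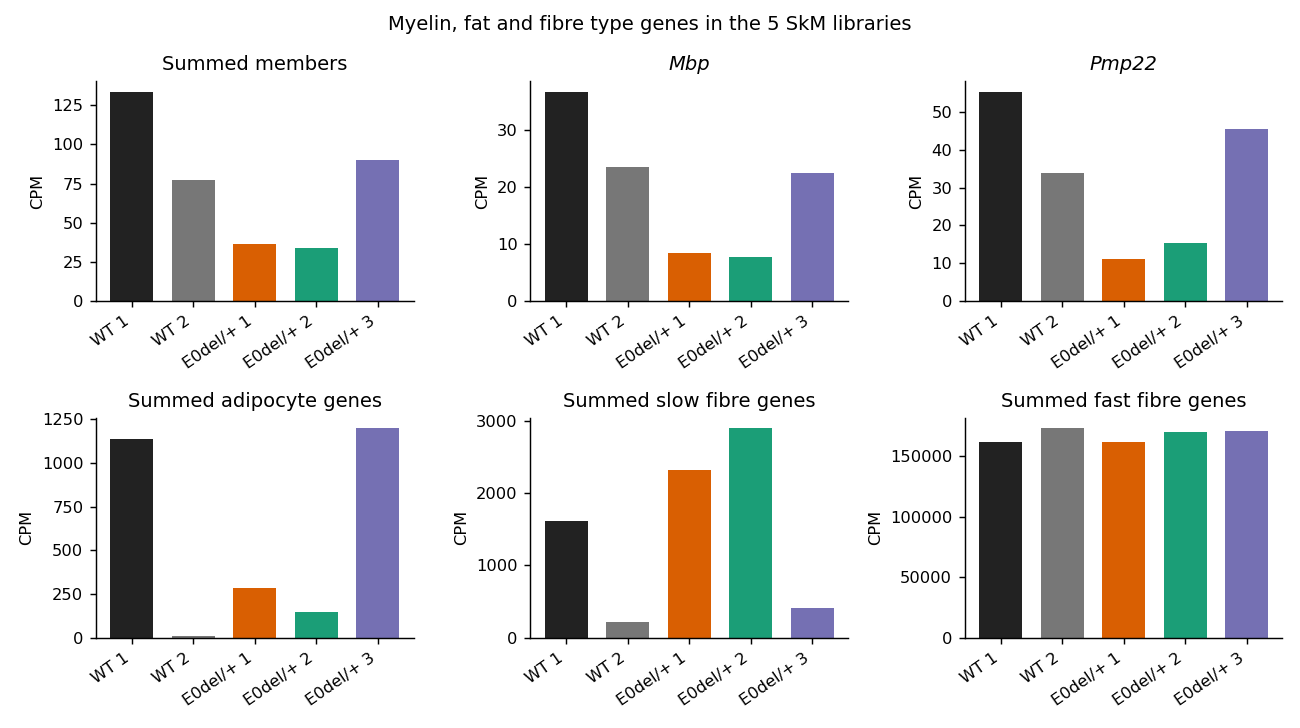
Bars give CPM (linear axes from 0) in the 5 SkM libraries for the summed 7 members, *Mbp*, *Pmp22*, the summed 6 adipocyte genes, the summed 7 slow fiber genes and the summed 10 fast fiber genes. WT 2 has 23.5 CPM of *Mbp* with 8.98 CPM of adipocyte genes, and WT 1 has 36.9 CPM of *Mbp* with 1619 CPM of slow fiber genes.

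Other structures in the dissected tissue gave further orders. The 6 genes of the neuromuscular junction, led in SkM by *Chrnb1*, summed to 84.7, 120.0, 107, 96.7 and 126 CPM in WT 1, WT 2, E0del/+ 1, E0del/+ 2 and E0del/+ 3, lowest in the library with the most myelin RNA. The 6 fibroblast genes summed to 469, 141, 189, 333 and 483 CPM, and the 3 perineurium genes, which mark the sheath around nerve fascicles but include the common glucose transporter *Slc2a1*, to 27.9, 10.8, 19.0, 15.0 and 15.9 CPM. E0del/+ 1 and E0del/+ 2 were the lowest pair in neither list. The 10 axon genes, led by *Stmn2*, summed to 3.74, 3.09, 2.58, 2.53 and 1.62 CPM in SkM in the same order of libraries. They were lowest in E0del/+ 3, a library rich in myelin RNA. *Chat*, *Nefm*, *Nefl* and *Snap25* were at 0 in at least 3 of the 5 libraries. None of the 6 oligodendrocyte genes reached a mean of 1 CPM in either tissue, and *Mobp*, *Opalin* and *Olig2* were at 0 in all 10 libraries, so that central myelin was not measurable.

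Of the other 22 Schwann cell and myelin genes listed, all of which were in the files, 12 averaged 1 CPM or more in SkM. Their 4 most abundant were *Drp2*, *Scn7a*, *Erbb3* and *L1cam*, and *Gjb1* was at 0 in all 5 LV libraries. E0del/+ 1 and E0del/+ 2 were the lowest pair of SkM libraries by CPM for 6 of these 12 genes, beside 14.0% of the 12212 genes whose mean reached 1 CPM in SkM. By CPM the pair was also lowest for 5 of the 10 fast fiber genes, of which *Pvalb* alone keeps it lowest with TMM scaling. The pair was singled out from *Mbp*, *Pmp22* and *Prx*, so the members were not counted. The 6 were *Mal*, *Cldn19*, *Ugt8a*, *Drp2*, *Cadm4* and *A330049M08Rik*, now named *Ncmap*. *Drp2*, the partner of *Prx* at the outer surface, read 15.5, 7.15, 4.55, 5.13 and 10.6 CPM in WT 1, WT 2, E0del/+ 1, E0del/+ 2 and E0del/+ 3. *Cldn19*, of the junctions between myelin layers, read 2.74, 1.94, 0.246, 0.333 and 2.53 CPM.

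Other orders in SkM were taken by 4 genes that were chosen after their values were seen. *Erbb3*, the neuregulin receptor of the lineage, read 7.41, 1.83, 4.06, 4.66 and 1.83 CPM in WT 1, WT 2, E0del/+ 1, E0del/+ 2 and E0del/+ 3. *Ngfr*, a neurotrophin receptor of nonmyelinating Schwann cells, read 2.66, 0.629, 2.28, 2.07 and 1.06 CPM, and *L1cam*, an adhesion molecule of the same cells and of axons, read 4.10, 0.858, 5.54, 3.06 and 2.25 CPM. All 3 were lowest in WT 2 and E0del/+ 3, the libraries that were lowest for slow fiber genes and that held at most 0.422 CPM of *Xist*. *Scn7a*, a sodium channel of nonmyelinating Schwann cells, read 11.2, 1.14, 2.58, 3.00 and 12.7 CPM, and its 2 highest libraries and its lowest one were those of the adipocyte genes. None of these 4 genes took the whole order of the slow fiber or the adipocyte list. Over all SkM libraries, however, *Scn7a* took the order of the summed fibroblast genes and *L1cam* that of the summed endothelial genes. *Cdh19*, also of nonmyelinating Schwann cells, had E0del/+ 1 and E0del/+ 2 as its lowest pair, at 0.369 and 0.267 CPM against 0.400 to 1.94 CPM. These were 6 and 4 counts, close to the 7 counts in WT 2. Unlike for *Mbp*, the pair was therefore not clearly apart from WT 2.

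**Figure D3:**
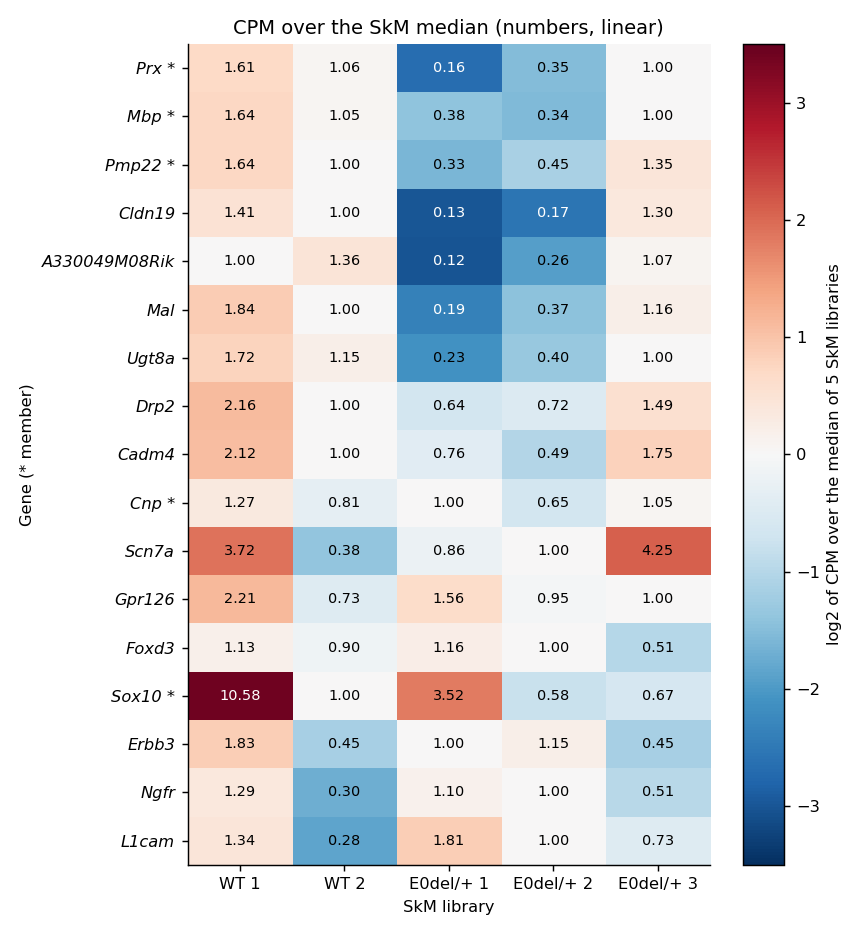
Each cell gives the CPM of a gene in a SkM library over its median of the 5 SkM libraries (number, linear) with the log2 of that ratio as color, for the 5 members and 12 other Schwann cell and myelin genes whose mean reached 1 CPM. The genes at the top, from *Prx* to *Ugt8a*, are under 0.5 in both E0del/+ 1 and E0del/+ 2, and *Erbb3*, *Ngfr* and *L1cam* at the bottom are not.

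Genes whose profile was most like that of the members were sought over all genes whose mean reached 1 CPM in SkM. Likeness was the root mean square difference, in log2 CPM with TMM scaling, between the deviations of a gene from its own mean and the median deviation of the members that reached 1 CPM. Over the 5 SkM libraries the closest genes other than the members were *Ugt8a* (0.203), *Drp2* (0.252), *Dapk1* (0.268), *Plekha4* (0.281), *Maff* (0.288), *Racgap1* (0.290), *Slc7a5* (0.296) and *Mgat3* (0.310). *Ugt8a*, which makes the galactolipids of myelin, and *Drp2* thus came first of all genes that were not members. *Mbp* differed by 0.148 and *Pmp22* by 0.201, *Prx* by 0.470, *Cnp* by 0.643 and *Sox10* by 1.42. A gene with no change between the libraries would differ by 0.780, and wider swings in the same order also add to the difference. The distances of fat, slow and fast fiber genes, 0.699 or more, were therefore not read as likeness.

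Over all 10 libraries the closest genes were *4931406C07Rik* (0.232), *Hoga1* (0.291), *Igf1* (0.314), *Dbi* (0.320), *Lyplal1* (0.323), *Ifi27l1* (0.338), *Sema4g* (0.353) and *Gm2a* (0.356). *Cnp* differed by 0.401, *Pmp22* by 0.569, *Mbp* by 0.649, *Prx* by 0.794 and *Sox10* by 0.996. None of these 8 genes was in a Schwann cell list. A gene with no change would differ by 0.581, and *Mbp*, *Prx* and *Sox10* lay beyond that value.

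LV and SkM of the same mouse were compared to ask where Schwann cell RNA was richer. By CPM, *Mbp* rose from LV to SkM in 4 of 5 mice, 5.78-fold in WT 1, 2.69-fold in WT 2, 1.32-fold in E0del/+ 1 and 3.57-fold in E0del/+ 3, and was at 0.852 times its LV level in E0del/+ 2. With TMM scaling *Mbp* rose in 5 of 5 mice. *Prx* rose in 4 of 5 mice on both scales, by CPM 9.21-fold in WT 1, 2.44-fold in WT 2, 1.24-fold in E0del/+ 2 and 5.03-fold in E0del/+ 3, and was at 0.499 times its LV level in E0del/+ 1. *Pmp22* was lower in SkM by CPM in 5 of 5 mice, at 0.224 to 0.934 times its LV level, but with TMM scaling it was higher in SkM in WT 1 (62.2 against 53.4), WT 2 (46.91 against 46.85) and E0del/+ 3 (57.0 against 42.4). For *Cnp* the SkM value was the larger in 1 mouse by CPM and in 4 with TMM scaling.

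Across all genes, 8255 of 13283 differed between the tissues in edgeR with mouse as a block (62.1%), of which 3986 were higher in SkM (30.0%) and 4269 higher in LV (32.1%). Of the 7 members, 6 had counts enough to be tested, all but *Mag*, and 2 of these were higher in SkM and 0 higher in LV, beside the 30.0% and 32.1% of all genes. *Mbp* was higher in SkM by 1.87 ± 0.352 (log2 fold change ± SE, edgeR adjusted *P* = 0.00229) and *Prx* by 1.93 ± 0.568 (adjusted *P* = 0.0187). The log2 fold changes of *S100b* (0.39, adjusted *P* = 0.449), *Cnp* (0.39, adjusted *P* = 0.0689), *Sox10* (-0.04, adjusted *P* = 0.959) and *Pmp22* (-0.36, adjusted *P* = 0.345) did not pass the threshold of 0.05. The median over the 6 members was 0.39 and that over all genes tested -0.02. Without WT 2, the mouse whose LV library held skeletal muscle counts, *Mbp* was at 1.80 (adjusted *P* = 0.00567) and *Prx* at 1.92 (adjusted *P* = 0.0360).

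Scaling and single mice decided some of these values. With total counts in place of TMM the median of all genes moved to -0.68, the calls split into 1590 higher in SkM and 7881 higher in LV, and of the members *Mbp* alone was called higher in SkM (1.21, adjusted *P* = 0.0296). On that scale *Prx* was not called (1.25, adjusted *P* = 0.104), *Pmp22* was called higher in LV (-1.02, adjusted *P* = 0.0304), and *S100b* and *Cnp* turned to -0.27 and -0.28. The call of *Prx* was also lost without WT 1 (1.48, adjusted *P* = 0.0555) and without E0del/+ 3 (1.67, adjusted *P* = 0.0612). The call of *Mbp* held in 12 of 12 alternatives, with log2 fold changes of 1.21 to 2.13. *Cnp* was called higher in SkM with no block (0.40, adjusted *P* = 0.0383) and without E0del/+ 2 (0.48, adjusted *P* = 0.0420).

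The other Schwann cell and myelin genes divided between the tissues. Of the 22, 13 were tested, and 2 were higher in SkM, 6 higher in LV and 5 not called, beside 30.0% and 32.1% of all genes, with a median log2 fold change of -0.55. The filter dropped 9 genes of low count. Of these, *Cldn19*, *A330049M08Rik* and *Gldn* were higher in SkM by CPM in 5 of 5 mice, *Ugt8a*, *Pllp* and *Gjb1* in 4 of 5 and the other 3 in at most 2. Higher in SkM were *Drp2* (3.34 ± 0.389, adjusted *P* = 0.000201) and *Foxd3* (1.65 ± 0.453, adjusted *P* = 0.0137), a transcription factor of the neural crest whose call was lost in 3 of 11 alternatives. *Drp2* read 0.523 to 2.43 CPM in LV and was higher in SkM in 5 of 5 mice. Among the members and other Schwann cell and myelin genes that were tested, *Drp2*, *Prx* and *Mbp* had the largest log2 fold changes toward SkM.

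Higher in LV were *Cadm4*, *Cdh19*, *Mal*, *Scn7a*, *Erbb3* and *L1cam*, and each was higher in LV by CPM in 5 of 5 mice. *Cdh19*, a cadherin of immature and nonmyelinating Schwann cells, read 4.10 to 7.08 CPM in LV and 0.267 to 1.94 CPM in SkM (-2.47 ± 0.435, adjusted *P* = 0.00166). *Scn7a* read 23.8 to 45.5 CPM in LV and 1.14 to 12.7 CPM in SkM (-2.16 ± 0.515, adjusted *P* = 0.00728), and *L1cam* read 7.85 to 14.8 CPM in LV and 0.858 to 5.54 CPM in SkM (-1.24 ± 0.314, adjusted *P* = 0.00973). *Erbb3* read 11.2 to 18.9 CPM in LV and 1.83 to 7.41 CPM in SkM (-1.46 ± 0.341, adjusted *P* = 0.00673). *Cadm4*, an adhesion molecule of the Schwann cell membrane next to the axon, was at -2.54 ± 0.269 (adjusted *P* = 0.000126) and *Mal*, a lipid-raft protein of myelin and epithelia, at -2.43 ± 0.368 (adjusted *P* = 0.000759). These 6 calls held in all alternatives that could test them. *Ngfr* was not called with TMM scaling (0.09 ± 0.333, edgeR adjusted *P* = 0.829), although by CPM it too was higher in LV in 5 of 5 mice. The genes of nonmyelinating Schwann cells were therefore not all called higher in LV. All 6 fibroblast, all 5 endothelial and all 4 macrophage genes were also called higher in LV, with median log2 fold changes of -1.64, -1.99 and -2.01.

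**Figure D4:**
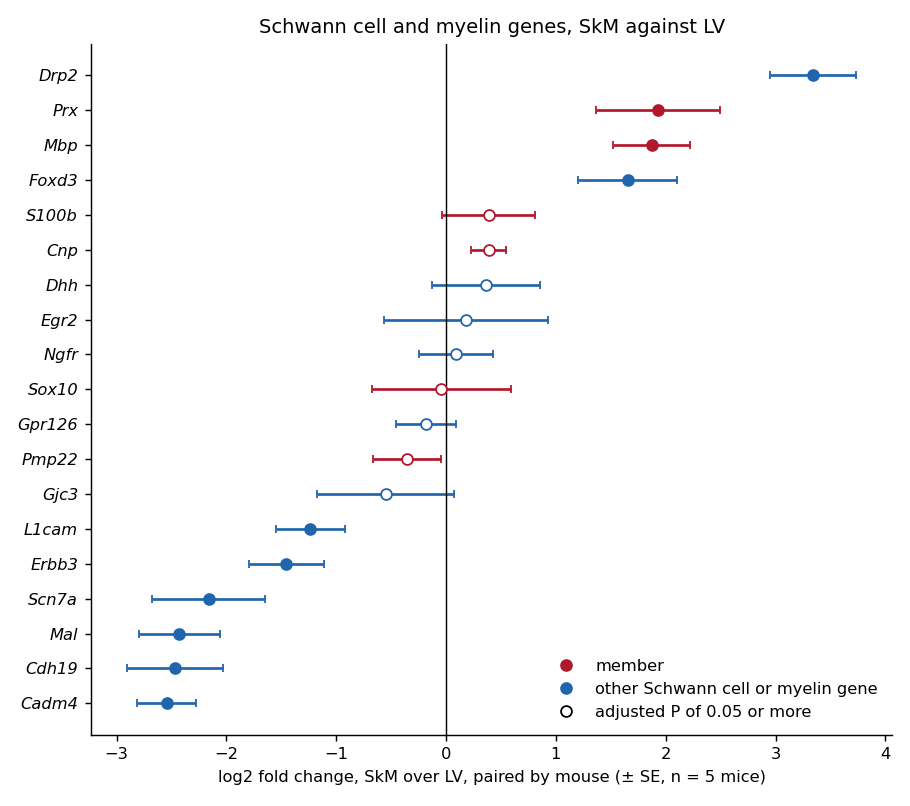
Log2 fold change of SkM over LV, paired by mouse with TMM scaling (horizontal axis, points ± SE, n = 5 mice), for the 6 members and 13 other Schwann cell and myelin genes tested, with filled points where the adjusted *P* was under 0.05. *Drp2*, *Prx*, *Mbp* and *Foxd3* lie to the right, and *Cadm4*, *Cdh19*, *Mal*, *Scn7a*, *Erbb3* and *L1cam* to the left.

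Neighbors of the Schwann cell in LV were read in the same way. Of the 10 axon genes 2 were tested, and both were higher in LV. *Stmn2*, a microtubule regulator of growing neurons, read 8.37, 5.31, 8.79, 18.4 and 8.37 CPM in LV of WT 1, WT 2, E0del/+ 1, E0del/+ 2 and E0del/+ 3 and 0.704 to 1.94 CPM in SkM (-2.21 ± 0.274, adjusted *P* = 0.000273). *Uchl1* was at -2.95 ± 0.482 (adjusted *P* = 0.00111). *Dct*, an enzyme of melanin synthesis in cells of neural crest origin, read 6.07, 2.88, 8.53, 7.81 and 4.36 CPM in LV and at most 0.185 CPM in SkM (-6.10 ± 0.601, adjusted *P* = 8.90e-05). *Pmel* was the other melanocyte gene whose mean reached 1 CPM in LV. It read 2.70 CPM in LV of WT 2, the library with skeletal muscle counts, and 0.461 to 1.54 CPM in the other LV libraries. *Tyrp1* was at 0 in all 10 libraries, and *Tyr* and *Mlana* were at most 0.0908 and 0.230 CPM. *Sox10*, which melanocytes share with Schwann cells, was at 2.18 to 5.54 CPM in the LV libraries. How much of it came from melanocytes was not tested.

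Heterozygous and WT mice were set against each other within LV and within SkM to ask whether the deletion went with a change in nerve genes. In SkM all 7 members were tested and all 7 had a negative log2 fold change, from -0.19 for *Cnp* to -1.78 for *Sox10*, with a median of -1.08 against -0.01 for all genes tested. Of the other lists with at least 2 genes tested, 7 also lay wholly on 1 side of 0, with medians of 1.03 for slow fiber, 0.95 for heart, 1.26 for blood, 0.85 for macrophage, 0.37 for endothelial, -0.16 for perineurium and -1.24 for mammary genes. No member was called, nor was any gene (0 of 13154, 0%, in edgeR, and 0 in DESeq2), with 114 genes at an unadjusted *P* under 0.05. *Mbp* was at -1.20 ± 0.501, *Pmp22* at -0.85 ± 0.613, *Mag* at -1.08 ± 1.14, *Prx* at -1.37 ± 0.740, *Sox10* at -1.78 ± 1.11, *S100b* at -0.96 ± 0.716 and *Cnp* at -0.19 ± 0.265 (log2 fold change ± SE, edgeR adjusted *P* = 1.00 for each). By CPM the genotypes overlapped for *Mag*, *Sox10*, *S100b*, *Cnp* and *Pmp22*, since E0del/+ 3 or E0del/+ 1 lay above WT 2. With TMM scaling *S100b* no longer overlapped (1.78 and 1.66 in WT against at most 1.58 in E0del/+) and the other 4 still did. *Mbp* and *Prx* overlapped on neither scale, with E0del/+ 3, at 22.5 and 7.46 CPM, just under WT 2, at 23.5 and 7.89 CPM. E0del/+ 1 and E0del/+ 2 were the lowest pair for *Mbp*, *Pmp22*, *Mag*, *Prx* and *S100b*, but not for *Sox10* and *Cnp*.

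Batch and single libraries moved these values. With the batch as a block, which sets E0del/+ 1 against WT 1 and E0del/+ 2 against WT 2 and draws nothing from E0del/+ 3, *Mbp* was at -1.87 (adjusted *P* = 0.167), *Pmp22* at -1.72 (adjusted *P* = 0.411), *Prx* at -2.44 (adjusted *P* = 0.713) and *Mag*, *Sox10*, *S100b* and *Cnp* at -2.84, -1.25, -1.71 and -0.33 (adjusted *P* = 0.999 for each), and 1 gene in all was called. All 7 members were lower in E0del/+ in both of these pairs. Without WT 1, *Sox10* turned from -1.78 to 0.51 and *Cnp* from -0.19 to 0.0234. Without E0del/+ 3, *Mbp* was at -1.92, *Pmp22* at -1.75 and *Prx* at -2.40, and without E0del/+ 1 they were at -0.96, -0.50 and -0.94, with *Mag* at -0.57. Nerve content, genotype and the piece of muscle that was taken cannot be told apart with this number of mice.

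In LV 6 members were tested and none was called, nor was any gene in edgeR (0 of 13420, 0%, with 564 at an unadjusted *P* under 0.05), while DESeq2 called 12 and the batch as a block 5. The log2 fold changes were -0.15 ± 0.268 for *Mbp*, -0.27 ± 0.147 for *Pmp22*, -0.28 ± 0.494 for *Prx*, 0.11 ± 0.406 for *Sox10*, 0.41 ± 0.549 for *S100b* and 0.01 ± 0.202 for *Cnp*, each with an edgeR adjusted *P* of 0.997 or more. Their median was -0.07 against -0.01 for all genes tested. *Pmp22* was the member nearest to a difference, with 67.7 and 54.4 CPM in WT and 48.9 to 60.5 CPM in E0del/+, which overlap, but with TMM scaling, at 53.4 and 46.85 against 41.3 to 43.0, they do not. Without WT 2, *Mbp* turned to 0.17 and *Prx* to 0.60, without E0del/+ 3 *S100b* fell to 0.0819, and without WT 1, which leaves WT 2 as the lone WT library, 578 genes were called, 574 of them lower in E0del/+, but no member.

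The difference between the tissues in their response to genotype was tested directly. In the interaction of tissue and genotype, 0 of 13283 genes were called (0%, edgeR with mouse as a block), with 257 at an unadjusted *P* under 0.05. The interaction was -1.23 ± 0.571 for *Mbp*, -0.84 ± 0.579 for *Pmp22*, -1.56 ± 1.04 for *Prx*, -1.59 ± 1.32 for *Sox10*, -1.50 ± 0.747 for *S100b* and -0.21 ± 0.352 for *Cnp* (adjusted *P* = 1.00 for each). With single mice left out, the interaction was -1.79 to -0.79 for *Mbp*, -1.47 to -0.39 for *Pmp22* and -2.44 to -0.73 for *Prx*. A difference between the tissues in the effect of genotype on these genes was not detectable with 5 mice. Without WT 1, 134 genes were called, none of them a member, and the interaction of *Sox10* turned to 0.37.

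**Figure D5:**
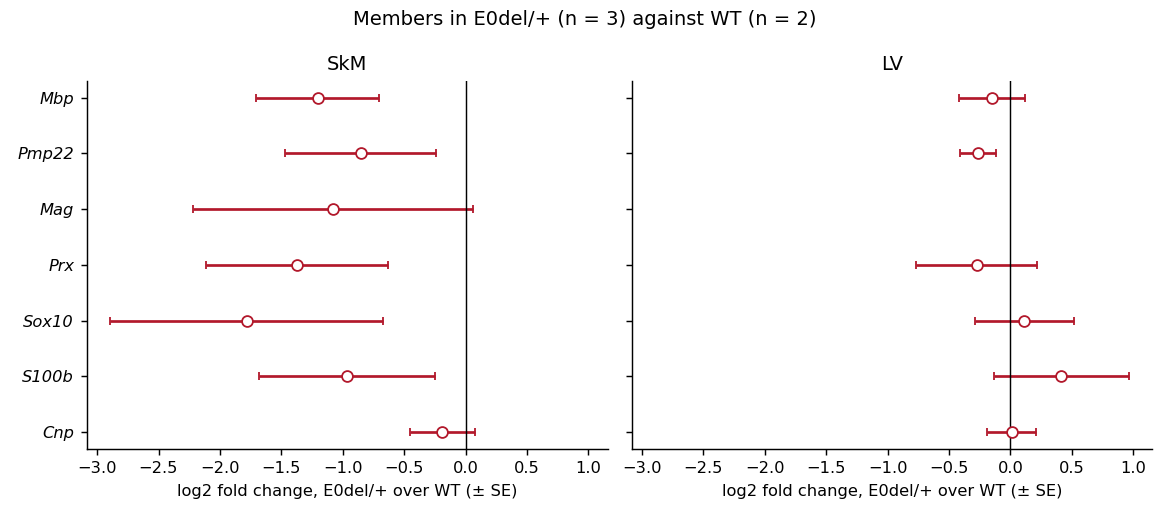
Log2 fold change of E0del/+ (n = 3) over WT (n = 2) for the members in SkM and LV (horizontal axes, points ± SE, edgeR with TMM scaling), with *Mag* tested in SkM only. Open points mark adjusted *P* values of 0.05 or more, and every point is open.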

How the data were processed

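Bulk RNA-Seq libraries of poly(A) RNA, made with a Nextera XT kit that keeps no strand, came from 5 mice, 2 WT and 3 E0del/+, with LV and SkM of each. For each library and gene the authors deposited a raw count and an RPKM value, which equals the count over summed exon length and library total. The submitters' processing notes name STAR, DESeq2 and mm10, and the counting software and annotation were not given in the sources used here. Groups and batches came from the labels. LV and SkM of a mouse share a number in the library names and were paired as 1 animal. The batch tag pairs WT and E0del/+ mice of batches 1 and 2. Deviations from the group means correlated across 13006 genes by 0.504 and 0.302 in SkM and by 0.030 and -0.127 in LV for these pairs, and by -0.066 to 0.127 between the tissues of a mouse.

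CPM was computed from the raw counts. Tests were made on raw counts in R 4.3.3 with edgeR 4.0.16 (quasi-likelihood, filterByExpr, TMM) and Benjamini-Hochberg adjustment over all genes tested, with a threshold of 0.05. SEs are the log2 fold change over the square root of F. Alternatives were DESeq2 1.42.0 with its Wald test, its size factors within edgeR, total counts, no filter (at least 1 count), at least 10 counts in every library, scaling without fast fiber and heart genes, the block added or removed, 1 fit over all 10 libraries, and each library or mouse left out. The scripts were tested on simulated counts. Replicates were separate animals. Intervals and floors (3 counts) cover counting error only, since reads without molecular identifiers are not independent molecules.

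The members and lists were chosen with earlier results of these data known. Named were all members, of each other list the genes whose mean reached 1 CPM in SkM as counts and sums with up to 4 most abundant and any at 0, and the 8 genes most like the members (log2 CPM with a prior count of 2). Genes outside this rule were named after their values were seen. Besides the members, 15 lists were fixed before the files were read, and 2, of mammary epithelium and pluripotent cells, were added after values were seen. Some listed genes are not reported here. Symbols were matched to the files through RefSeq synonyms, and *Hbb-bt* was not matched. The endothelium, macrophage, smooth muscle and blood lists gave sums of 105 to 221, 7.61 to 26.6, 22.9 to 89.0 and 13.3 to 117 CPM in SkM. In LV their sums were 966 to 1927, 62.5 to 92.2, 130 to 256 and 125 to 161 CPM. *Hba-a1* and *Hba-a2* were at 0 in all libraries. Heart genes summed to 59.6 to 290 CPM in SkM.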

Additional observations from a re-analysis of the deposited data

Results flagged for a closer look

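Each member, the sum of the members and of each of the 15 fixed lists, and each of the 12 other Schwann cell and myelin genes was looked at within the 5 libraries of a tissue, 70 sets in all. The 2 lists added later were not included. In 7 of them a single library lay farther from its nearest neighbor than 0.71 of the whole range, where chance gives about 1 in 20 sets. All 7 were in LV, and in all 7 the library was WT 2, the one that held skeletal muscle counts. None was a member. The groups of 2 and 3 libraries were too small to be looked at on their own.

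*Cldn19* read 1.08 CPM in WT 2 and 0 to 0.182 CPM in the other 4 LV libraries. The fast fiber genes summed to 39920 CPM against 160.0 to 183 CPM, and the adipocyte genes to 284 CPM against 2.01 to 24.2 CPM. The adipocyte genes came to 8.98 CPM in the SkM library of WT 2 itself.

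*Ugt8a* read 3.24 CPM in the LV of WT 2 against 0 to 0.174 CPM in the other LV libraries and 0.308 to 2.30 CPM in SkM, so that it was above every SkM library. *Foxd3* read 2.25 CPM against 0.262 to 0.727 CPM, also above every SkM library. The axon genes summed to 79.9 CPM against 12.8 to 25.1 CPM, of which *Tubb3* made 63.3 CPM, and the perineurium genes to 70.4 CPM against 30.4 to 33.6 CPM, of which *Slc2a1* made 62.9 CPM. These 4 were higher in this library than in all SkM libraries. For the axon and perineurium sums, at most 3.74 and 27.9 CPM in SkM, this also held in the other LV libraries. The source of the counts was not tested.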

How the results depend on the processing

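The call of *Mbp* higher in SkM and the calls of *Drp2*, *Mal*, *Cadm4*, *Cdh19*, *Erbb3*, *Scn7a* and *L1cam* between the tissues held in every alternative that could test them. With total counts, the calls between the tissues were 1590 higher in SkM and 7881 higher in LV, with 1 member in each direction, and *S100b* and *Cnp* reversed to -0.27 and -0.28, as this scaling moves the median of all genes by construction. With mice left out, 7240 to 8202 genes were called, 3516 to 3991 higher in SkM and 3724 to 4211 higher in LV, with 1 to 3 members higher in SkM and 0 to 0 higher in LV. *Sox10* between the tissues was at 0.43 with no replicate block and at -0.74 to 0.40 with mice left out. The range of summed member CPM over SkM libraries was 3.53-fold with TMM sizes, 3.72-fold by RPKM and 4.22-fold without *Pmp22*.

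For E0del/+ against WT in SkM, 1 gene was called with the replicate block and 0 to 0 with libraries left out. Left-out libraries gave -1.92 to -0.95 for *Mbp*, -1.75 to -0.50 for *Pmp22*, -2.40 to -0.94 for *Prx*, -3.06 to 0.51 for *Sox10* and -0.37 to 0.0234 for *Cnp*. In LV, 5 genes were called with the replicate block, 12 by DESeq2 and 0 to 578 with libraries left out, which gave -0.42 to 0.17 for *Mbp*, -0.84 to 0.60 for *Prx*, -0.19 to 0.49 for *Sox10*, 0.0819 to 0.67 for *S100b* and -0.16 to 0.20 for *Cnp*. With the block *Cnp* was at -0.0066 and *S100b* at 0.0750. No member was called with or without the block in either tissue. In the interaction, 0 to 134 genes were called with mice left out, which gave -3.34 to 0.37 for *Sox10* and -0.54 to 0.13 for *Cnp*. A lone WT library was assumed to vary like the E0del/+ libraries. The causes of these changes were not tested. Depth limits *Mag* and *S100b* most, with at most 12 and 22 counts in a library.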

Other observations

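The LV library of WT 2 held a further set of genes, noticed after the values were seen. A list of 8 genes of pluripotent cells summed to 103 CPM there and to 0.0908 to 0.391 CPM in the other 4 LV libraries and 0.308 to 2.11 CPM in SkM. Its most abundant gene, *Lin28a*, read 57.5 CPM, and 2 of the 8 were at 0 in all libraries. The epithelial keratin *Krt8* was also raised, at 18.5 CPM beside 0.611 to 0.908 CPM elsewhere in LV, with *Epcam* at 0.0900 CPM. The part of these counts in the values of *Ugt8a*, *Foxd3* and *Tubb3* was not tested.

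The mammary and milk genes were found in the SkM libraries of the 3 mice with *Xist*. *Xist* read 397, 364 and 278 CPM in SkM of WT 1, E0del/+ 1 and E0del/+ 2, and *Csn3* read 26.1, 6.03 and 1.33 CPM in these and 0 in WT 2 and E0del/+ 3. The slow fiber sums of 1619, 2326 and 2898 CPM in these 3 libraries were above the 211 and 416 CPM of the other ones. *Mbp*, at 36.9, 8.43 and 7.66 CPM, spanned both ends of its range in the libraries with *Xist*.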
